A study of Homo sapiens with 6 samples.

Results

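RNA of H9 cells at day 2 of cardiac organoid differentiation was compared with RNA of H9 cells at day 0, gene by gene. H9 is an established human embryonic stem cell line, and cardiac organoids are 3-dimensional heart tissues grown from such cells in culture. The day 2 library was taken 2 days into the protocol, and the day 0 library stands for the starting embryonic stem cells. The labels give the same line and the cell type "Embryonic stem cell" for either day, name no treatment, and give 10 organoids harvested per time point. The full course ends at day 30 and has 6 libraries, 1 per day sampled. The values are FPKM, fragment counts scaled by gene length and library depth, as the authors deposited them. A gene was measured when its FPKM was at least 1 in either library, which held for 16019 of the 58735 genes of the table. It was called higher or lower at day 2 when log2(FPKM + 1) differed by at least 1, so a gene of low level needs a larger fold than a gene of high level. With 1 library per day there is no replicate, so samples were not tested and no p-value is given, and a call says only that these libraries differ by that much. Folds are ratios of FPKM at day 2 and day 0. The 95% interval in brackets after a fold comes from the reads behind the values and covers counting error only, not variation between cultures.

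Leaving the pluripotent state towards heart passes through a stage that resembles the primitive streak, where WNT, NODAL, BMP and FGF signals act on one another and on their own inhibitors. Cells in this stage loosen from the epithelium and give rise to mesoderm and endoderm. Signalling of this kind works through secreted ligands, the receptors that bind them, and the enzymes that shape the matrix in which they spread.

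At day 2, 1406 genes were higher, which is 8.78% of those measured, and 1242 were lower, which is 7.75%. The median difference of all measured genes was -0.03. For 1143 of the higher and 1014 of the lower genes the counting interval of the fold excluded 1. Among 12104 measured protein-coding genes, 784 were higher (6.48%) and 639 lower (5.28%), and the interval excluded 1 for all of these. The libraries held 15526924 recovered reads at day 2 and 14824424 at day 0. Reads of mitochondrially encoded genes made up 5.93% at day 2 and 7.51% at day 0.

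**Figure D1:**
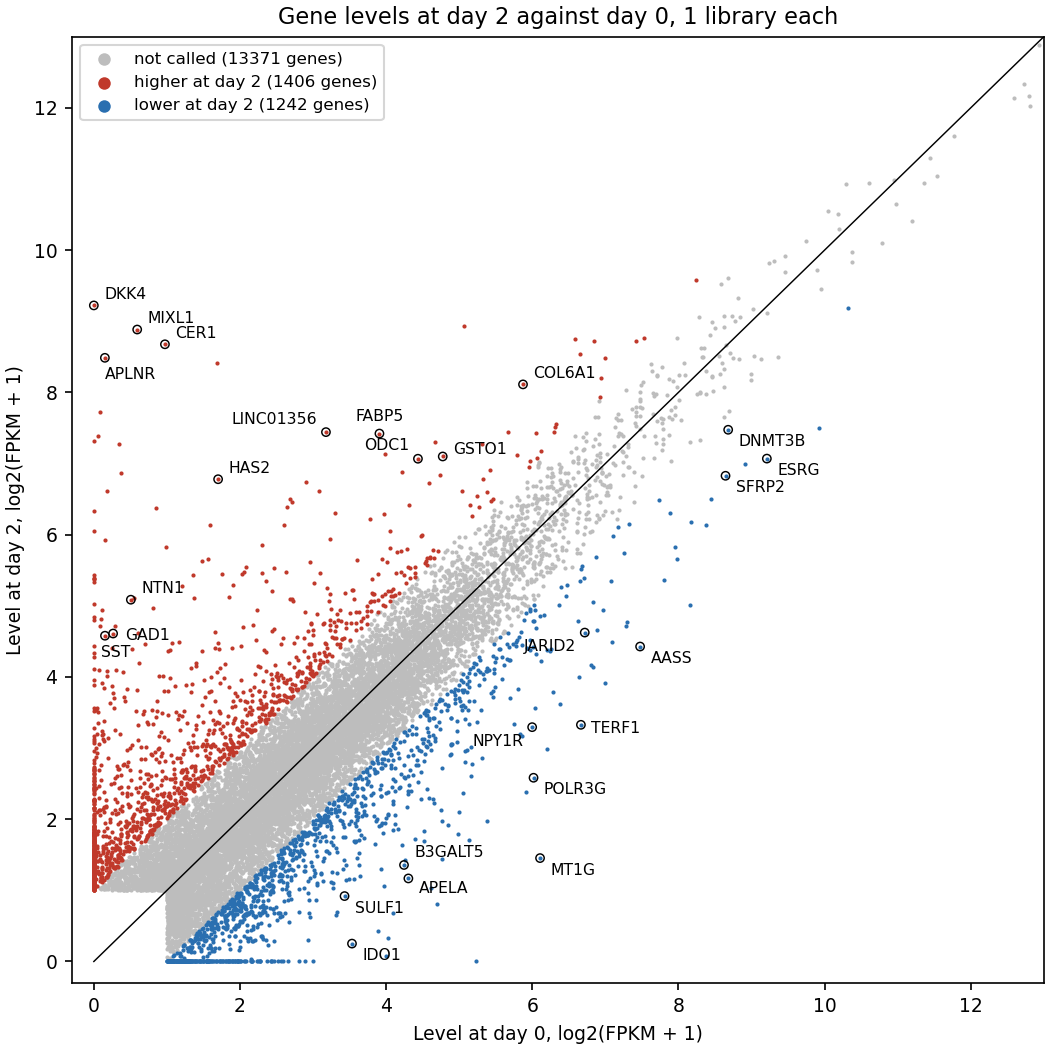
Level of each of the 16019 measured genes at day 2 (vertical axis) and day 0 (horizontal axis), both as log2(FPKM + 1), with 1 library for each day. Red points are the 1406 genes called higher at day 2 and blue points the 1242 called lower, grey points were not called, and the line marks equal levels. DKK4, APLNR and MIXL1 stand at the upper left, while MT1G, POLR3G and TERF1 stand far below the line.

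The difference followed the GC share of the genes. When the measured genes were split into 10 bins by the GC share of their longest annotated transcript, the median difference was 0.48 in the bin of highest GC, from 61.6% to 86.4%, and -0.34 in the bin of lowest GC, from 23.1% to 38.3%. The gap of 0.82 compares with 0.11 in the step to day 3, 0.09 in the step to day 4 and -0.01 in the step to day 6. In the bin of highest GC 18.9% of genes were called higher and 3.56% lower, against 4.56% and 12.7% in the bin of lowest GC. Genes called higher had a median GC share of 53.6%, genes called lower 44.7% and the others 48.1%. After each bin's median was subtracted, 1176 genes were higher and 1124 lower, of which 1053 and 893 were called in the same direction without the subtraction. A trend that belongs to the day 0 library and a GC-linked change in the cells cannot be told apart with 1 library per day. Of 579 called genes that the rule for naming genes selects, 115 lost their call under the subtraction. Some of these are marked below, and a gene without such a mark need not have kept its call.

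**Figure D2:**
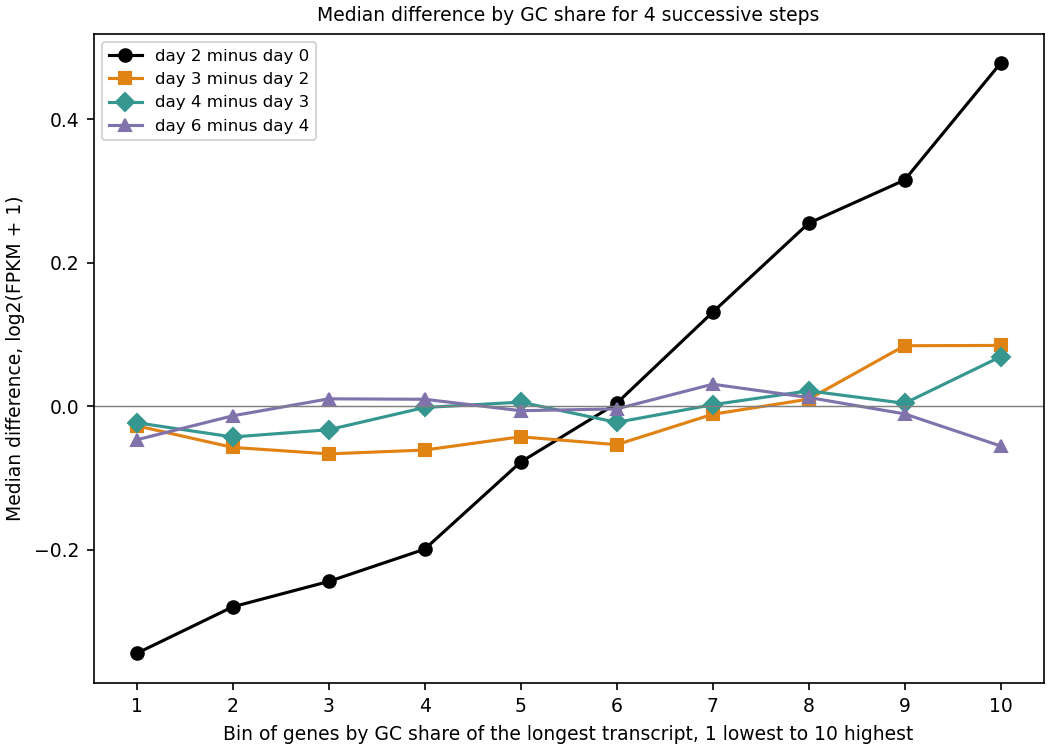
Median difference in log2(FPKM + 1) in 10 bins of measured genes ordered by the GC share of the longest transcript, for 4 successive steps of the course. The day 2 minus day 0 line climbs from -0.34 to 0.48, while the other 3 lines stay close to 0.

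The label was set against marker genes. All 10 pluripotency markers were measured, and their summed level was 988 FPKM at day 2 and 1985 FPKM at day 0. Of them 5 were lower and 5 not called. The central factor POU5F1 was not called, with 352 FPKM at day 2 and 561 FPKM at day 0. All 10 primitive streak markers were higher, with a sum of 1443 FPKM at day 2 and 5.40 FPKM at day 0. Of 10 definitive endoderm markers 6 were measured and all 6 were higher, with a sum over the 10 of 628 FPKM at day 2 and 6.81 FPKM at day 0, while FOXA1 had 0.530 FPKM and AFP 0 FPKM at day 2. SOX17, GATA6, FOXA2 and CER1 had an FPKM under 1 at day 0, so they were measured only through day 2. The median difference was 5.72 over the measured 6 and 2.24 over all 10, each of which had a read in either library. Fewer cells of a type and less RNA per cell cannot be told apart in these bulk values.

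Markers of other cell types were at low levels in either library. Of 12 markers of endothelium and blood 1 was measured, SOX18, with a summed level of 4.07 FPKM at day 2 and 1.95 FPKM at day 0, and PTPRC and HBE1 had no read. The call of SOX18, with 2.33 FPKM at day 2 and 0.222 FPKM at day 0, ended under the GC subtraction, as did that of GABRP. Of 12 trophoblast and amnion markers 3 were measured, HAND1 being higher and IGFBP3 and GABRP lower, with a sum of 10.3 FPKM at day 2 and 9.5 FPKM at day 0, and CGA and TFAP2B had no read. The 10 neuroectoderm markers summed to 48.4 FPKM at day 2 and 48.5 FPKM at day 0. Within that equal sum the homeobox factor OTX2, which the anterior streak also expresses, rose to 39.8 FPKM at day 2, against 4.14 FPKM at day 0 and the bHLH factor HES3 fell to 2.94 FPKM at day 2, against 40.8 FPKM at day 0. The neural crest list summed to 22.2 FPKM at day 2 and 56.3 FPKM at day 0. The part of any of these cell types in the results below was not tested.

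In 10 lists of ligands and their modulators, some of them cell-bound, 52 of 166 measured members were higher (31.3%) and 24 lower (14.5%). The median GC share of these members was 54.8%, beside 48.1% in genes not called. Shares pooled over several lists were not taken after the GC subtraction. A gene silent on 1 day counts as measured only if it reached an FPKM of 1 on the other, so such shares describe the measured members and not whole lists. All 5 measured WNT ligands were higher, of 19 in the table, and all 5 had an FPKM under 1 at day 0, so that they were measured only through day 2. Over the 16 members with a read in either library the median difference was 0.28, beside 3.78 over the measured 5. A list's median is over its measured members, and its median with no minimum is over all members with a read in either library. WNT8A (chromosome 5, 138083892 to 138092365, plus strand), a ligand of the early streak, had 16.4 FPKM at day 2 and 0 FPKM at day 0. The canonical ligands WNT3 and WNT3A rose to 16.05 FPKM at day 2, against 0.238 FPKM at day 0 and 8.13 FPKM at day 2, against 0.0939 FPKM at day 0, which is 86.6-fold higher (33.6 to 319.5). WNT5A, which acts largely without beta-catenin in the movement of cells, was the most abundant of the 5 with 23.6 FPKM at day 2 and 0.521 FPKM at day 0, 45.3-fold higher (34.8 to 60.2). Ligand genes thus rose in more than 1 branch of the WNT family.

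The secreted proteins that tune WNT signals moved in opposite directions. Of 9 measured, 5 were higher and 2 lower (median difference 1.03, or -0.04 with no minimum). RSPO3, an R-spondin that amplifies WNT signals, had 40.9 FPKM at day 2 and 0 FPKM at day 0, at least 629-fold higher. NOTUM, a carboxylesterase that removes the lipid from WNT proteins and so inactivates them, rose to 6.99 FPKM at day 2, against 0.0228 FPKM at day 0, with 1 read behind the day 0 value and a ratio of 307 (54.7 to 12153). The antagonists DKK4 and DKK1 had the highest levels of the group at day 2, 597 and 211 FPKM, against 0 and 0.0624 FPKM at day 0. The frizzled-related proteins SFRP2 and SFRP1, which also bind WNT proteins, fell instead, SFRP2 to 113 FPKM at day 2, against 399 FPKM at day 0 and SFRP1 to 27.9 FPKM at day 2, against 67.97 FPKM at day 0.

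Among fibroblast growth factors 3 of 9 measured were higher. FGF17, FGF4 and FGF8, of which FGF4 and FGF8 are made in the streak, had 153, 33.4 and 7.57 FPKM at day 2, against 0.272, 0.468 and 0.0981 FPKM at day 0. FGF2, which is added to stem cell media and is also made by the cells, fell to 5.32 FPKM at day 2, against 13.7 FPKM at day 0, a call that ended under the GC subtraction. In the TGF-beta family 4 of 14 measured ligands were higher and 0 lower (median difference 0.74, or 0.15 with no minimum and 0.44 under the GC subtraction), namely NODAL, BMP2, BMP4 and AMH. BMP2 rose to 16.4 FPKM at day 2, against 1.51 FPKM at day 0 and BMP4 to 10.3 FPKM at day 2, against 0.916 FPKM at day 0, 11.2-fold higher (8.14 to 15.8). AMH, the hormone known for regression of the Müllerian duct in male embryos, had 14.9 FPKM at day 2 and 2.45 FPKM at day 0.

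The list of BMP and NODAL antagonists, which also holds the membrane protein FLRT3, split as the WNT modulators did. Of 12 measured 6 were higher and 2 lower (median difference 0.82, or 0.37 with no minimum), and 5 and 2 under the GC subtraction. FST, which encodes follistatin, an inhibitor of activin, rose to 42.7 FPKM at day 2, against 3.06 FPKM at day 0, 13.97-fold higher (11.7 to 16.8). CER1, which encodes cerberus, a secreted inhibitor of NODAL, BMP and WNT signals, had 408 FPKM at day 2 and 0.963 FPKM at day 0. FLRT3, a membrane protein with roles in cell adhesion and FGF signalling, had 20.2 FPKM at day 2 and 0.186 FPKM at day 0. NOG, which encodes the BMP antagonist noggin, fell to 2.59 FPKM at day 2, against 16.01 FPKM at day 0, 6.17-fold lower (4.85 to 7.95), and the chordin-like CHRDL1 fell to 1.03 FPKM at day 2, against 4.99 FPKM at day 0. At day 2 the genes of follistatin and cerberus were thus high and that of noggin low, with the reverse order at day 0.

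Peptide hormones and neuropeptides had 8 higher and 6 lower of 31 measured (median difference -0.37, or -0.04 with no minimum). SST, which encodes somatostatin, had 22.9 FPKM at day 2 and 0.111 FPKM at day 0, with 1 read at day 0. NTS, the gene of neurotensin, rose to 86.6 FPKM at day 2, against 5.58 FPKM at day 0, 15.5-fold higher (12.97 to 18.7). POMC, the precursor of ACTH and other melanocortins, had 9.09 FPKM at day 2 and 0.761 FPKM at day 0, and the galanin gene GAL rose to 105 FPKM at day 2, against 22.98 FPKM at day 0. Genes of the regulated secretory pathway were called in either direction. CHGA, which encodes the granule protein chromogranin A, had 17.3 FPKM at day 2 and 6.77 FPKM at day 0, a call that ended under the GC subtraction. VGF, a granin-like precursor, fell to 9.58 FPKM at day 2, against 32.9 FPKM at day 0 and SCG5, a chaperone of prohormone convertase 2, fell to 2.74 FPKM at day 2, against 11.03 FPKM at day 0. PCSK1, which encodes prohormone convertase 1, had 10.5 FPKM at day 2 and 0.6096 FPKM at day 0, 17.2-fold higher (12.8 to 23.6).

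The apelin receptor and its ligands moved apart. APLNR (chromosome 11, 57233577 to 57237314, minus strand) rose to 358 FPKM at day 2, against 0.1105 FPKM at day 0, 3237-fold higher (1487 to 8823). Both ligand genes fell, APELA to 1.25 FPKM at day 2, against 18.8 FPKM at day 0 and APLN to 1.14 FPKM at day 2, against 8.68 FPKM at day 0. ADM, the gene of the vasodilator peptide adrenomedullin, and its receptor gene both fell, ADM to 21.9 FPKM at day 2, against 54.5 FPKM at day 0 and CALCRL to 0.0505 FPKM at day 2, against 1.92 FPKM at day 0. CALCR, the gene of the related calcitonin receptor, rose to 19.98 FPKM at day 2, against 0.4396 FPKM at day 0, 45.5-fold higher (31.1 to 69.2).

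Cytokines and chemokines had 6 higher and 5 lower of 21 measured. CXCL14 rose to 5.75 FPKM at day 2, against 0.314 FPKM at day 0, whereas CXCL5, a chemokine that attracts neutrophils, fell to 1.22 FPKM at day 2, against 10.8 FPKM at day 0, 8.82-fold lower (6.56 to 12.1). Among 23 other growth factors 3 were higher and 3 lower. TGFA, a ligand of the EGF receptor, rose to 6.24 FPKM at day 2, against 1.26 FPKM at day 0 and PDGFA, a platelet-derived growth factor, fell to 4.37 FPKM at day 2, against 22.6 FPKM at day 0. PDGFRA, the receptor of PDGFA, moved the opposite way, with 11.4 FPKM at day 2 and 0.163 FPKM at day 0, 70.3-fold higher (46.7 to 111).

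Guidance cues, which steer axons and migrating cells, had 9 higher and 3 lower of 35 measured (median difference 0.51, or 0.31 with no minimum and 0.11 under the GC subtraction). Netrin genes led the rise, with NTN1 at 32.96 FPKM at day 2 and 0.421 FPKM at day 0, 78.4-fold higher (57.2 to 110.4), and NTNG2 at 4.42 FPKM at day 2 and 0.272 FPKM at day 0. The slit genes SLIT2 and SLIT3 rose as well, SLIT2 to 9.95 FPKM at day 2, against 1.68 FPKM at day 0, and so did the ephrin genes EFNB1, EFNB2 and EFNA2. The 3 that fell were semaphorins, among them SEMA3A with 0.663 FPKM at day 2 and 4.02 FPKM at day 0 and SEMA6A with 24.7 FPKM at day 2 and 65.4 FPKM at day 0. Of 8 cell-bound ligands and their modifiers, DLL3, DLL1 and LFNG were higher and JAG1 and CNTN1 lower. DLL1 and JAG1 both encode ligands of NOTCH receptors, and DLL1 rose to 43.2 FPKM at day 2, against 7.57 FPKM at day 0 where JAG1 fell to 6.57 FPKM at day 2, against 28.7 FPKM at day 0.

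**Figure D3:**
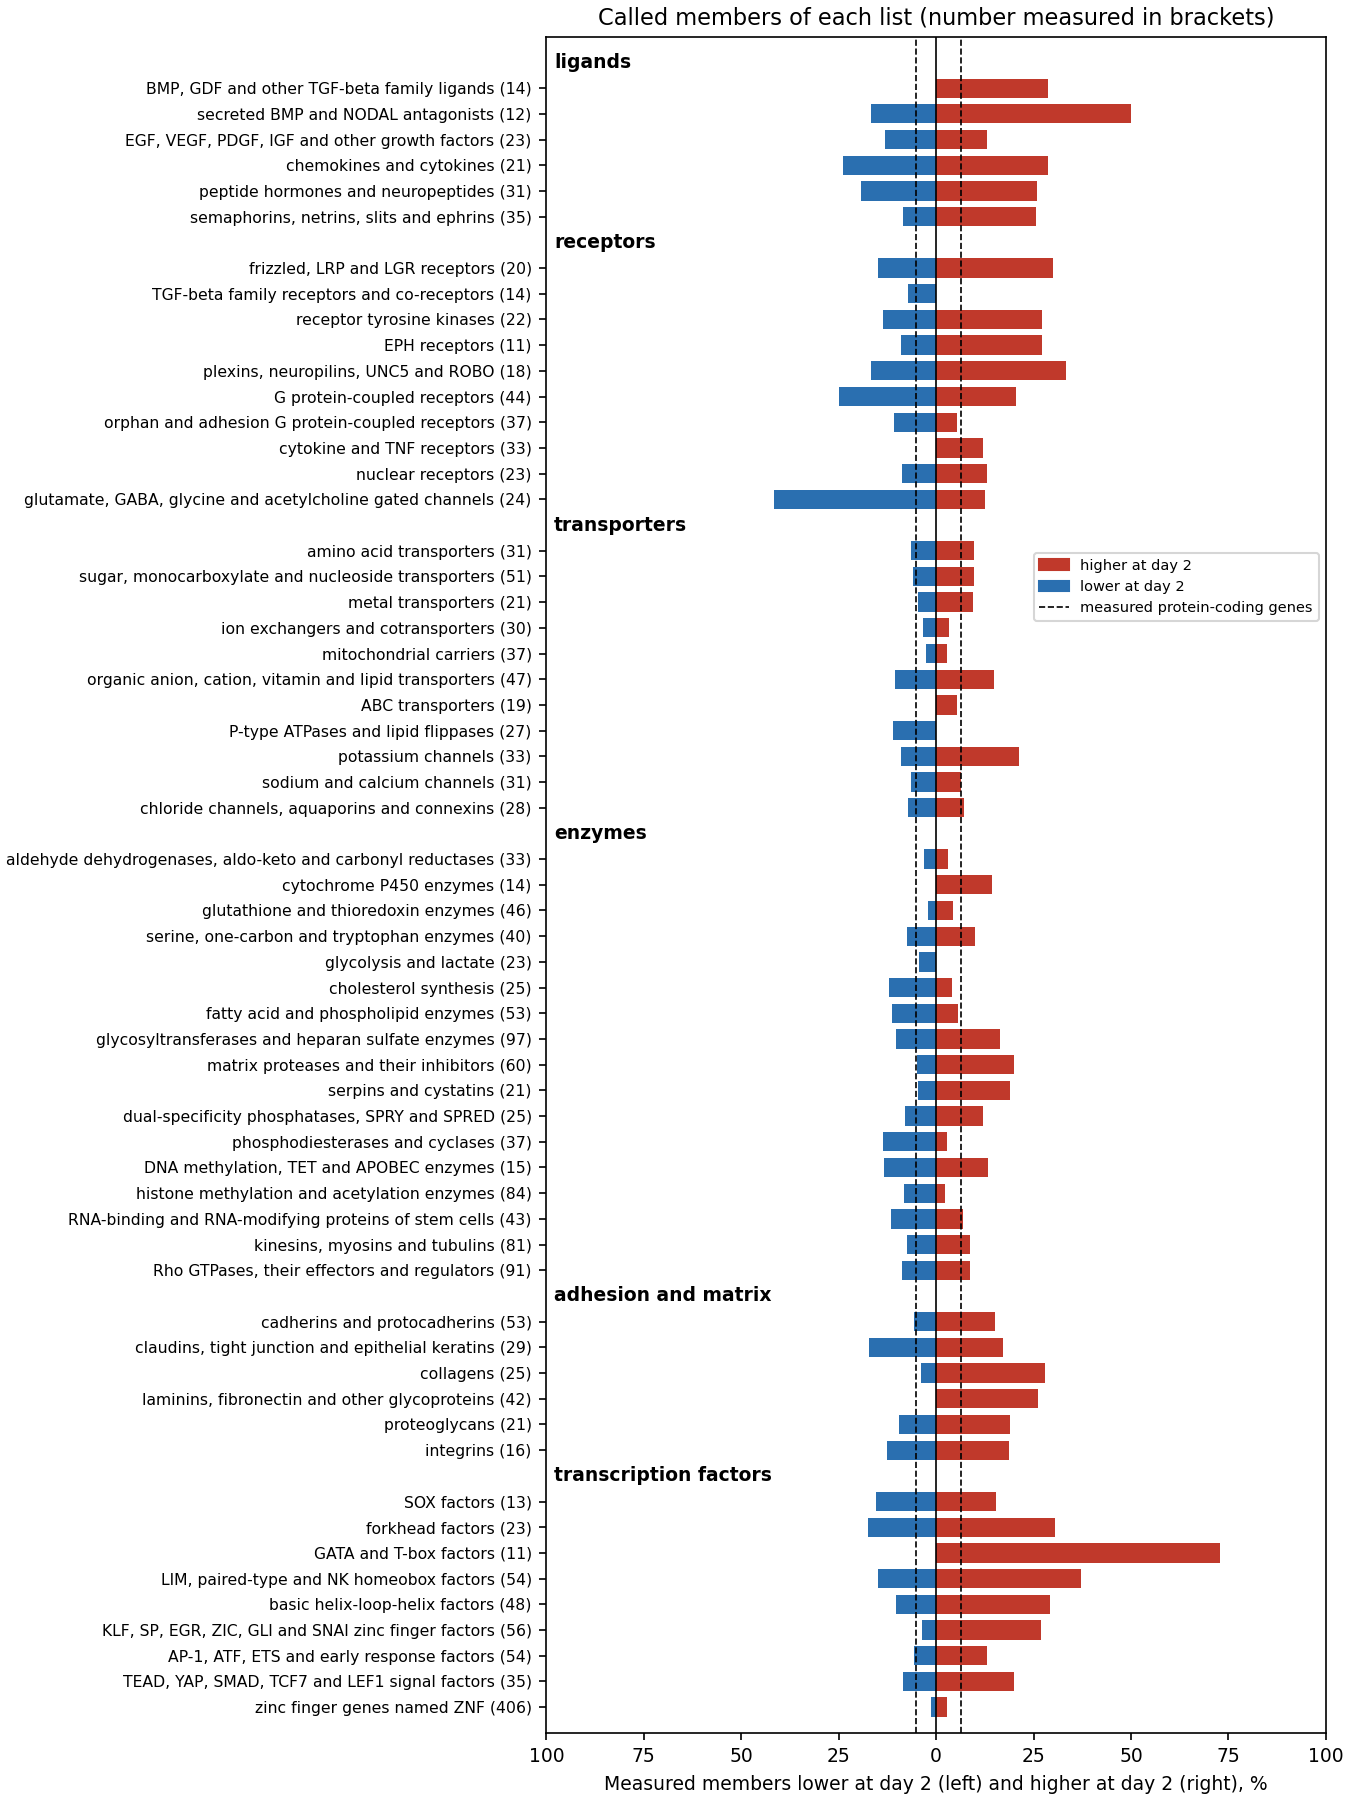
Share of the measured members of each list that were higher at day 2 (red, to the right) or lower at day 2 (blue, to the left), in percent, for the lists of ligands, receptors, transporters, enzymes, matrix and transcription factors with at least 10 measured genes, with 1 library for each day. Dashed lines mark the shares of all measured protein-coding genes, 6.48% higher and 5.28% lower. Of the lists drawn, GATA and T-box factors reach the farthest right and the gated channels the farthest left, while ZNF genes lie inside the dashed lines on either side.

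Receptors had 43 of 253 measured members higher (17%) and 38 lower (15.02%). Receptors of WNT proteins and R-spondins had 6 higher and 3 lower of 20. LGR5, a receptor of R-spondins and a known WNT target, had 14.04 FPKM at day 2 and 0.0786 FPKM at day 0, 179-fold higher (81.8 to 487). Its relative LGR4 fell to 8.22 FPKM at day 2, against 20.2 FPKM at day 0, a call that ended under the GC subtraction. The WNT5A receptor ROR2 rose to 38 FPKM at day 2, against 1.31 FPKM at day 0, 28.9-fold higher (23.96 to 35.3), and ROR1 fell to 4.99 FPKM at day 2, against 18.2 FPKM at day 0. Frizzled genes were divided too, with FZD10 at 5.54 FPKM at day 2 and 0.273 FPKM at day 0 and FZD5 at 4.21 FPKM at day 2 and 10.8 FPKM at day 0. Of the 14 measured receptors and co-receptors of the TGF-beta family 0 were higher and 1 was lower, BMPR1A with 6.93 FPKM at day 2 and 15.4 FPKM at day 0, and that call ended under the GC subtraction and under 2 other scalings.

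Receptor tyrosine kinases had 6 of 22 higher and 3 lower. Beside PDGFRA, the FGF receptor gene FGFR3 rose to 12.9 FPKM at day 2, against 1.99 FPKM at day 0 and RET, the receptor of GDNF ligands, rose to 6.96 FPKM at day 2, against 2.25 FPKM at day 0. PTK7, a pseudokinase of planar cell polarity, had 63.1 FPKM at day 2 and 21.5 FPKM at day 0. The hepatocyte growth factor receptor MET fell to 0.565 FPKM at day 2, against 2.73 FPKM at day 0, and the VEGF receptor genes FLT1 and KDR fell to 2.94 FPKM at day 2, against 9.54 FPKM at day 0 and 37.5 FPKM at day 2, against 83.4 FPKM at day 0. Among 11 EPH receptors EPHA4, EPHA2 and EPHB3 were higher, with EPHA2 at 60.1 FPKM at day 2 and 8.41 FPKM at day 0. EPHA1 was lower, with 22.6 FPKM at day 2 and 46.2 FPKM at day 0, a call that ended under TMM and total-read scaling.

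Receptors of guidance cues were called in both directions. PLXNA2 (chromosome 1, 208022242 to 208244320, minus strand), a plexin that binds class 6 semaphorins and pairs with neuropilins for class 3, had 29.8 FPKM at day 2 and 0.0799 FPKM at day 0, 373-fold higher (229 to 653). The netrin receptor genes moved apart, as UNC5C rose to 3.93 FPKM at day 2, against 0.0515 FPKM at day 0 and UNC5D fell to 4.59 FPKM at day 2, against 14.3 FPKM at day 0. NRP1, the gene of neuropilin 1, rose to 3.05 FPKM at day 2, against 0.4301 FPKM at day 0.

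G protein-coupled receptors of known ligands had 9 of 44 higher and 11 lower. The alpha-2C adrenergic receptor ADRA2C rose to 56.6 FPKM at day 2, against 3.95 FPKM at day 0, 14.3-fold higher (11.97 to 17.3). The chemokine scavenger ACKR3 had 6.601 FPKM at day 2 and 0.0305 FPKM at day 0, with 1 read at day 0 and a ratio of 217 (38.5 to 8589). NPY1R and NPY5R, neighbouring genes of receptors for neuropeptide Y, fell together, NPY1R to 8.81 FPKM at day 2, against 62.9 FPKM at day 0 and NPY5R to 0.944 FPKM at day 2, against 5.31 FPKM at day 0. The endothelin receptor EDNRB fell to 6.11 FPKM at day 2, against 20.5 FPKM at day 0, and the dopamine receptor DRD3 had 0 FPKM at day 2 and 1.93 FPKM at day 0, at least 21.8-fold lower.

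Channels gated by glutamate, GABA, glycine, serotonin or acetylcholine had 10 of 24 measured lower (41.7%) and 3 higher (12.5%), and their median difference was -0.41, or -0.03 with no minimum. The glutamate receptor genes GRIN2D and GRIA4 had 3.15 and 0.234 FPKM at day 2, against 13.3 and 2.42 FPKM at day 0. The GABA receptor subunit gene GABRB2, in contrast, rose to 4.23 FPKM at day 2, against 0.626 FPKM at day 0. Under the GC subtraction 8 of the 24 were lower and 3 higher, with a median of -0.65. GAD1, which encodes an enzyme that makes GABA, rose, with 23.4 FPKM at day 2 and 0.2004 FPKM at day 0, 117-fold higher (78.4 to 183).

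Transporters and ion channels had 31 of 355 measured members higher (8.73%) and 23 lower (6.48%), beside 6.48% and 5.28% of all protein-coding genes. SLC5A9, a sodium-coupled sugar transporter, had 8.09 FPKM at day 2 and 0.0759 FPKM at day 0, 107-fold higher (45.4 to 329.7). SLC16A3, which exports lactate, rose to 42.6 FPKM at day 2, against 13.8 FPKM at day 0. The amino acid carriers SLC7A5 and SLC7A3 moved apart, as the large neutral amino acid carrier SLC7A5 rose to 34.8 FPKM at day 2, against 13.1 FPKM at day 0 and the cationic amino acid carrier SLC7A3 fell to 20.7 FPKM at day 2, against 53.6 FPKM at day 0. SLC29A1, a nucleoside carrier, fell to 16.1 FPKM at day 2, against 41.5 FPKM at day 0.

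Of 21 measured metal transporters 2 were higher and 1 lower. The larger difference in log2(FPKM + 1) among the higher ones was that of SLC39A8, an importer of zinc, manganese and other divalent metals, which had 38.9 FPKM at day 2 and 7.06 FPKM at day 0, 5.505-fold higher (5.07 to 5.98). SLC39A14, a close relative, had 16.6 FPKM at day 2 and 35.4 FPKM at day 0, and its call of lower ended under the GC subtraction and under scaling by total reads. Potassium channels had 7 of 33 higher and 3 lower. KCNG1, a modifier subunit, rose to 14.98 FPKM at day 2, against 2.05 FPKM at day 0 and KCNH2, the hERG channel of cardiac repolarisation, fell to 2.83 FPKM at day 2, against 10.3 FPKM at day 0. HCN4, the pacemaker channel of the heart, was also lower, with 5.05 FPKM at day 2 and 17.9 FPKM at day 0. The gap junction gene GJA1, which encodes connexin 43, was abundant on either day and rose to 422 FPKM at day 2, against 170.2 FPKM at day 0.

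Metallothioneins, small proteins that bind zinc and copper through cysteines, fell as a group. All 6 measured genes, of 11 in the table, which lie on chromosome 16 between 56608199 and 56684196, were lower, with a median difference of -3.64, or -2.82 with no minimum. Their summed level was 5.97 FPKM at day 2 and 153 FPKM at day 0. MT1G had 1.74 FPKM at day 2 and 67.9 FPKM at day 0 and MT2A had 1.05 FPKM at day 2 and 23.6 FPKM at day 0. MT1X fell to 2.24 FPKM at day 2, against 21.9 FPKM at day 0 and MT1F to 0.625 FPKM at day 2, against 9.04 FPKM at day 0. MT1E had 0.05904 FPKM at day 2, from 1 read, and 14.9 FPKM at day 0, a ratio of 253 (44.9 to 10024) in favour of day 0. Metallothionein messages are alike in sequence, so reads may have been shared or lost among them, and the sum is firmer than any member.

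Metal response elements, the sites through which zinc induces metallothionein genes, share the core TGCACNC or TGCGCNC. The promoters of 3 of the 6 genes are in the RefSeq table (GRCh38.p14), each from 250 bases before to 50 after the gene's start. They are shown because the members fell together, with matches to the core on either strand in capitals. None of the matches overlaps another.
MT2A: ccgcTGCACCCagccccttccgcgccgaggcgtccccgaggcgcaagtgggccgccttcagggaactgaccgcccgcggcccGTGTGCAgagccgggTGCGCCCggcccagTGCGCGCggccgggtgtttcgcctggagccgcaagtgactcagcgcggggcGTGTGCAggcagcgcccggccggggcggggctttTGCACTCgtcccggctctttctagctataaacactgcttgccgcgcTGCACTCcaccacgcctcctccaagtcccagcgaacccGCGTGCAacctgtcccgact
MT1H: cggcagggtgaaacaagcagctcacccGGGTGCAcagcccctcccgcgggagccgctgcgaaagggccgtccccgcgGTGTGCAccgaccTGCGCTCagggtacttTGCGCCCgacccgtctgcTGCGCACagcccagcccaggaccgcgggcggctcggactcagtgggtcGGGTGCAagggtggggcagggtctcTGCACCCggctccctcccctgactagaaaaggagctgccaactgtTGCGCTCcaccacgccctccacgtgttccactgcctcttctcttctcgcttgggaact
MT1X: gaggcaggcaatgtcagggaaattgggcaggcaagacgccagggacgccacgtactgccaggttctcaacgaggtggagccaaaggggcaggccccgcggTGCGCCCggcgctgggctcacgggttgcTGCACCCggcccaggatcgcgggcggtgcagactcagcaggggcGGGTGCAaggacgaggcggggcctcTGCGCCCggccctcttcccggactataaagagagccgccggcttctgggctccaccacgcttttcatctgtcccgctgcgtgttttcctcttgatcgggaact
These are chr16:56608334-56608633, chr16:56669564-56669863 and chr16:56682220-56682519, all on the plus strand. MT2A and MT1H hold 8 matches each and MT1X 4. At least 3 matches were found in 3.49% of the 9607 promoters of measured protein-coding genes in the table, so the cores are dense in these windows. The same share was 4.78% among genes called higher and 3.43% among genes called lower. A match shows letters, not binding.

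A group of 18 lists, mostly of enzymes, had 71 of 790 measured members higher (8.99%) and 70 lower (8.86%). The shares of all protein-coding genes were 6.48% and 5.28%. The group also holds metallothioneins, serpins and cystatins, stem cell RNA-binding proteins, and kinesins, myosins and tubulins. A few large differences stood in lists that had few calls. Retinoic acid, made from vitamin A, is broken down by CYP26A1, which rose to 43.7 FPKM at day 2, against 3.15 FPKM at day 0, 13.9-fold higher (11.7 to 16.6). ALDH1A2, which makes retinoic acid, had 1.82 FPKM at day 2 and 0.01597 FPKM at day 0, with 2 reads at day 0 and a ratio of 114 (31.3 to 948). DHRS3, which reduces retinal back to retinol, fell to 0.409 FPKM at day 2, against 3.54 FPKM at day 0. STRA6, a membrane receptor that takes up retinol, rose to 10.9 FPKM at day 2, against 3.42 FPKM at day 0. CYP1B1, another cytochrome P450, rose to 11.7 FPKM at day 2, against 0.824 FPKM at day 0, and the 12 other measured members of that family were not called.

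Of 40 measured enzymes of serine, one-carbon and tryptophan metabolism 4 were higher (10%) and 3 lower (7.5%). Among all protein-coding genes 6.48% were higher and 5.28% lower. ODC1, the first enzyme of polyamine synthesis, rose to 133 FPKM at day 2, against 20.6 FPKM at day 0, 6.45-fold higher (6.01 to 6.93). IDO1, which breaks down tryptophan, fell to 0.1904 FPKM at day 2, against 10.6 FPKM at day 0, and AASS, which breaks down lysine, fell to 20.5 FPKM at day 2, against 177 FPKM at day 0, 8.63-fold lower (8.18 to 9.11). GSTO1, a glutathione transferase of the omega class, rose to 136 FPKM at day 2, against 26.4 FPKM at day 0, and NQO1, a quinone reductase induced by oxidative stress, fell to 5.802 FPKM at day 2, against 18.02 FPKM at day 0. FABP5, which carries fatty acids, rose to 170.5 FPKM at day 2, against 14.02 FPKM at day 0. The processed pseudogene FABP5P7 had 106 FPKM at day 2 and 6.46 FPKM at day 0, and reads of these near-identical copies cannot be told apart. Glycolysis had 0 of 23 measured genes higher and 1 lower, the pyruvate dehydrogenase kinase PDK3 with 12.8 FPKM at day 2 and 33.3 FPKM at day 0.

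Enzymes that build or modify sugar chains had 16 of 97 measured members higher and 10 lower (median difference -0.01). Under the GC subtraction these counts became 10 and 11, so the excess of higher calls did not hold. HAS2, which makes the matrix polymer hyaluronan, rose to 109 FPKM at day 2, against 2.25 FPKM at day 0, 48.4-fold higher (40.9 to 57.7). The heparan sulfate endosulfatases, which trim the sulfates that bind growth factors, moved apart. SULF2 rose to 10.9 FPKM at day 2, against 2.72 FPKM at day 0, 4.01-fold higher (3.51 to 4.61), and SULF1 fell to 0.892 FPKM at day 2, against 9.79 FPKM at day 0, 10.98-fold lower (9.19 to 13.2). B3GALT5, an enzyme of the globo-series glycolipids that include the stem cell antigen SSEA-3, fell to 1.56 FPKM at day 2, against 17.96 FPKM at day 0, 11.5-fold lower (10.3 to 12.9). The mucin-type enzyme GALNT3 and the branching enzyme GCNT2 also fell, to 3.17 FPKM at day 2, against 16.5 FPKM at day 0 and 4.26 FPKM at day 2, against 19.3 FPKM at day 0.

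Matrix proteases and their inhibitors had 12 of 60 higher and 3 lower (median difference 0.15, or 0.05 with no minimum and -0.09 under the GC subtraction). The membrane-bound MMP14 rose to 73.5 FPKM at day 2, against 12.7 FPKM at day 0 and its substrate MMP2, a gelatinase that MMP14 activates, rose to 33.05 FPKM at day 2, against 10.8 FPKM at day 0. ADAMTS15, a protease of the proteoglycan versican, had 6.82 FPKM at day 2 and 0.376 FPKM at day 0, 18.1-fold higher (12.6 to 26.9). The trypsinogen gene PRSS2 had 26.98 FPKM at day 2 and 0 FPKM at day 0, and PRSS1 had 5.23 FPKM at day 2 and 0 FPKM at day 0; both are near-identical copies and their split is uncertain. Of 21 measured serpins and cystatins 4 were higher and 1 lower (median difference -0.17). SERPINE2, an inhibitor of thrombin and urokinase, rose to 82.7 FPKM at day 2, against 5.27 FPKM at day 0 and SERPINB9, which blocks granzyme B, to 156 FPKM at day 2, against 24.4 FPKM at day 0. The urokinase gene PLAU itself fell to 3.24 FPKM at day 2, against 8.49 FPKM at day 0.

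Chromatin enzymes were called in either direction. Of 84 measured enzymes of histone methylation and acetylation, 2 were higher (2.38%) and 7 lower (8.33%). Among all protein-coding genes 6.48% were higher and 5.28% lower. Of 15 measured DNA methylation, TET and APOBEC enzymes 2 were higher and 2 lower (13.3% each), or 2 and 1 under the GC subtraction. JARID2, a partner of the Polycomb complex PRC2, fell to 23.7 FPKM at day 2, against 104 FPKM at day 0, 4.41-fold lower (4.21 to 4.62). The demethylase genes KDM4C and KDM4A fell to 3.35 FPKM at day 2, against 11.97 FPKM at day 0 and 5.8 FPKM at day 2, against 15.8 FPKM at day 0. PRDM14, a pluripotency factor of the PR domain family, fell to 3.28 FPKM at day 2, against 31.05 FPKM at day 0. PRDM1, a transcriptional repressor that acts in the germ line and endoderm, rose to 4.499 FPKM at day 2, against 0.377 FPKM at day 0. The DNA methyltransferase DNMT3B fell to 177 FPKM at day 2, against 409 FPKM at day 0. UHRF1, which brings maintenance methylation to replicated DNA, rose to 16.4 FPKM at day 2, against 2.31 FPKM at day 0, 7.08-fold higher (6.04 to 8.35).

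Matrix and adhesion genes had 38 of 186 measured higher (20.4%) and 13 lower (6.99%). Collagens had 7 of 25 higher and 1 lower (median difference 0.70, or -0.01 with no minimum and 0.33 under the GC subtraction), led in level by the type VI chains COL6A1 and COL6A2, which had 276 and 113 FPKM at day 2, against 57.6 and 25.6 FPKM at day 0. COL5A1, a chain of the fibrillar type V collagen, rose to 33.8 FPKM at day 2, against 2.61 FPKM at day 0, 12.9-fold higher (11.7 to 14.3), and the transmembrane collagen COL13A1 to 19.9 FPKM at day 2, against 1.06 FPKM at day 0. Of 42 glycoproteins of the matrix 11 were higher and 0 lower, or 8 and 0 under the GC subtraction. FBN2, the fibrillin of embryonic tissue, had 42.6 FPKM at day 2 and 2.37 FPKM at day 0, 18-fold higher (16.4 to 19.8). The small proteoglycans BGN and FMOD rose to 23.7 FPKM at day 2, against 2.16 FPKM at day 0 and 7.83 FPKM at day 2, against 0.142 FPKM at day 0.

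Of 16 measured integrins 3 were higher and 2 lower (median difference -0.13, or 0.04 with no minimum). The fibronectin receptor subunit ITGA5 rose to 33.04 FPKM at day 2, against 5.55 FPKM at day 0, 5.95-fold higher (5.47 to 6.49), and the laminin receptor subunit ITGA6 fell to 13.2 FPKM at day 2, against 54.8 FPKM at day 0, 4.14-fold lower (3.9 to 4.39). Cadherins and protocadherins had 8 of 53 higher and 3 lower (median difference -0.13). CDH2, the gene of N-cadherin, rose to 96.6 FPKM at day 2, against 7.44 FPKM at day 0, 12.99-fold higher (11.9 to 14.2). CDH1, the gene of E-cadherin, had 53.9 FPKM at day 2 and 86.9 FPKM at day 0 and was not called. Among protocadherins PCDH10 rose to 33.2 FPKM at day 2, against 5.43 FPKM at day 0 and PCDH1 fell to 12.1 FPKM at day 2, against 50.9 FPKM at day 0. Claudins, other tight junction genes and epithelial keratins had 5 of 29 higher and 5 lower, or 2 and 5 under the GC subtraction. TJP3, a scaffold of tight junctions, fell to 0.825 FPKM at day 2, against 6.71 FPKM at day 0, and PODXL, the carrier of the stem cell epitope TRA-1-60, fell to 62 FPKM at day 2, against 137 FPKM at day 0.

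**Figure D4:**
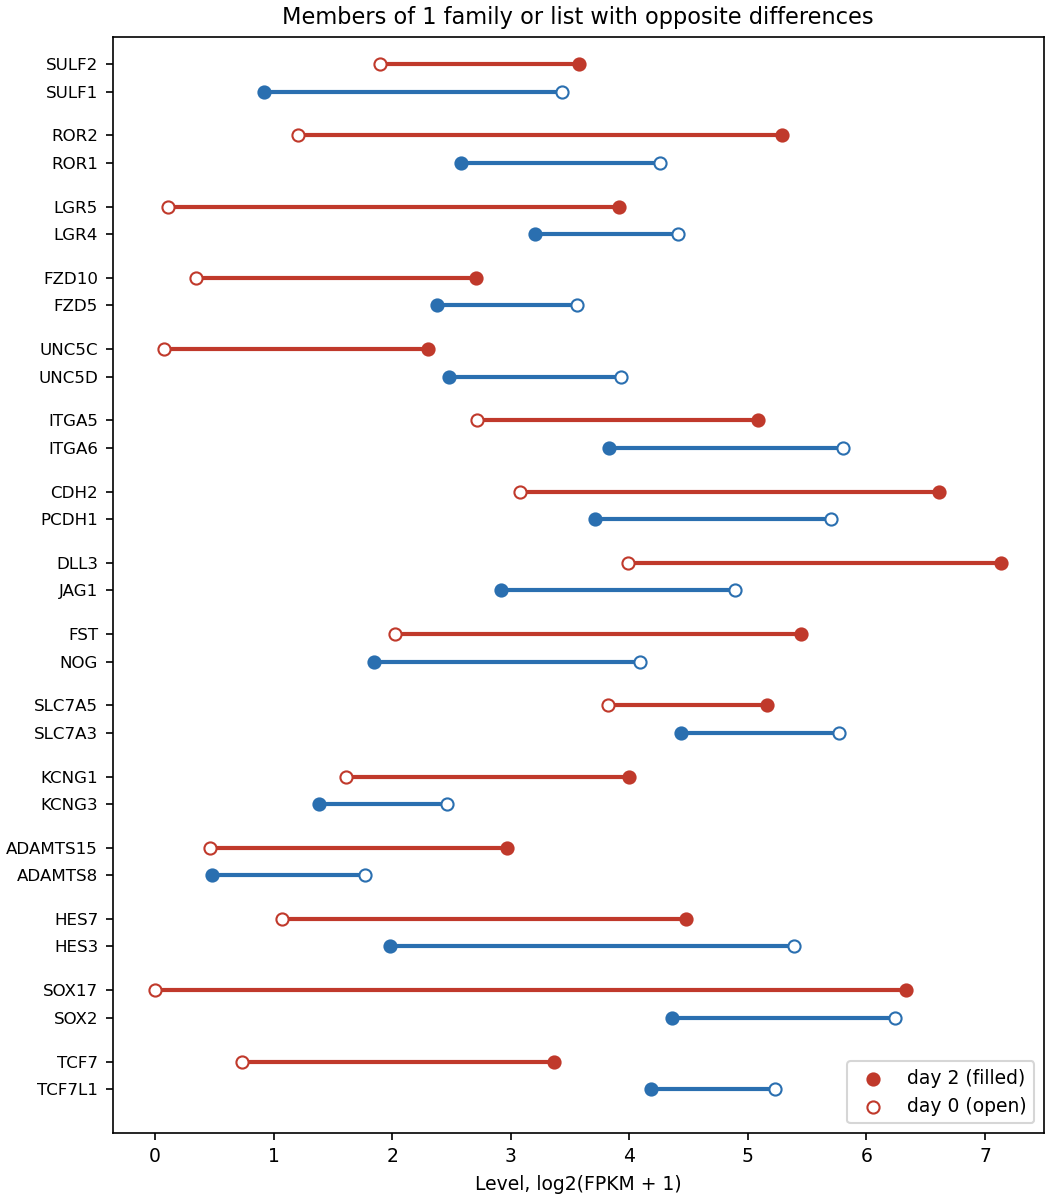
Level of 15 pairs of genes from 1 family or list, as log2(FPKM + 1), with day 2 as filled and day 0 as open circles, 1 library each, the pairs chosen for their opposite direction. In each pair the upper gene, in red, was called higher at day 2 and the lower gene, in blue, was called lower. The calls of LGR4 and TCF7L1 ended under 1 or more of the alternatives.

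Transcription factors had 93 of 702 measured higher (13.2%) and 32 lower (4.56%), unevenly among families. GATA and T-box factors had 8 of 11 higher and 0 lower, and over the 22 members with a read in either library the median difference was 0.40. TBX3, which acts in early endoderm and mesoderm, had 27.3 FPKM at day 2 and 0.0694 FPKM at day 0, 393-fold higher (180.2 to 1071), and TBX6, a factor of paraxial mesoderm, rose to 42.3 FPKM at day 2, against 1.56 FPKM at day 0. GATA4, a factor of heart and endoderm, had 16.2 FPKM at day 2 and 0.0465 FPKM at day 0 and GATA6 had 65.4 FPKM at day 2 and 0 FPKM at day 0. LIM, paired-type and NK homeobox factors had 20 of 54 higher and 8 lower (median difference 0.44, or 0.07 with no minimum), and 16 and 8 under the GC subtraction with a median of 0.17. The caudal factors that pattern the trunk were split, as CDX1 and CDX2 rose to 20.6 and 4.54 FPKM at day 2, against 0 and 0.0501 FPKM at day 0, while CDX4 fell to 0.656 FPKM at day 2, against 2.998 FPKM at day 0. IRX3 rose to 30.4 FPKM at day 2, against 0.757 FPKM at day 0 and its neighbour in the Iroquois family IRX5 to 4.23 FPKM at day 2, against 0.0968 FPKM at day 0.

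Forkhead factors had 7 higher and 4 lower of 23, and 4 and 4 under the GC subtraction. FOXC1, a factor of mesoderm, rose to 33.5 FPKM at day 2, against 1.58 FPKM at day 0, 21.2-fold higher (17.2 to 26.5), and FOXF1 had 6.09 FPKM at day 2 and 0 FPKM at day 0. FOXD3, known for the stem cell state and the neural crest, fell to 2.74 FPKM at day 2, against 13.9 FPKM at day 0, and FOXO1, which insulin signals restrain, fell to 4.03 FPKM at day 2, against 14.3 FPKM at day 0. bHLH factors had 14 of 48 higher and 5 lower (median difference 0.30, or 0.07 with no minimum and 0.13 under the GC subtraction). The segmentation factor HES7 rose to 21.3 FPKM at day 2, against 1.11 FPKM at day 0, 19.3-fold higher (13.4 to 28.8). TFE3, a lysosomal regulator that holds mouse stem cells in the pluripotent state, fell to 17.04 FPKM at day 2, against 48.1 FPKM at day 0. SNAI1, a repressor of epithelial genes, had 77.8 FPKM at day 2 and 8.82 FPKM at day 0 and ZEB2, another such repressor, had 1.76 FPKM at day 2 and 0.0137 FPKM at day 0.

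The nuclear partners of beta-catenin moved apart. LEF1 and TCF7 rose to 10.8 and 9.32 FPKM at day 2, against 0.0257 and 0.663 FPKM at day 0. TCF7L1, the repressor of this family in stem cells, fell to 17.2 FPKM at day 2, against 36.4 FPKM at day 0, and TCF7L2 to 4.94 FPKM at day 2, against 10.9 FPKM at day 0. The call of TCF7L1 ended under TMM, TPM and total-read scaling, and that of TCF7L2 under the GC subtraction, TMM and total-read scaling. RBPJ, the DNA-binding partner of NOTCH, fell to 17.7 FPKM at day 2, against 68.3 FPKM at day 0, 3.86-fold lower (3.699 to 4.04). Of the zinc finger family, 11 of 406 measured genes named ZNF were higher and 5 lower.

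In 10 lists, mostly of machinery common to all cells, 13 of 436 measured genes were higher (2.98%) and 18 lower (4.13%). Of 90 nuclear respiratory chain subunits 2 were higher and 0 lower, of 77 mitochondrial ribosomal proteins 1 and 0, and of 51 proteasome and chaperonin subunits 0 and 1. The RNA polymerase III subunit POLR3G (chromosome 5, 90471748 to 90514553, plus strand), which is enriched in stem cells, fell to 4.99 FPKM at day 2, against 63.8 FPKM at day 0, 12.8-fold lower (11.4 to 14.4). A list of telomere and germ-line associated genes, chosen for the stem cell state, had 0 of 19 higher and 8 lower. It is 1 of the 10 lists and holds 8 of their 18 lower genes. In it TRIML2 fell to 0.753 FPKM at day 2, against 24.98 FPKM at day 0, 33.2-fold lower (23.9 to 47.3), and TERF1, a telomere-binding protein, to 9.04 FPKM at day 2, against 101 FPKM at day 0.

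Long noncoding RNAs were called about equally in either direction. Of 628 measured long intergenic genes 92 were higher and 92 lower, 14.6% each, and of 806 antisense genes 89 were higher (11%) and 87 lower (10.8%). LINC01356 (chromosome 1, 112820170 to 112850643, minus strand) had the highest level at day 2 of the 92 that were higher, with 173 FPKM at day 2 and 8.04 FPKM at day 0, 21.5-fold higher (18.7 to 24.8). ESRG, a noncoding transcript of human stem cells, fell to 133 FPKM at day 2, against 591 FPKM at day 0, 4.44-fold lower (4.32 to 4.56). LINC00678 and LNCPRESS2 fell to 40.2 FPKM at day 2, against 222 FPKM at day 0 and 24.2 FPKM at day 2, against 118 FPKM at day 0, and LNCPRESS1, a transcript that p53 represses, fell to 3.37 FPKM at day 2, against 25.9 FPKM at day 0. AL591030.1 and AC007218.1 fell to 6.93 FPKM at day 2, against 72.8 FPKM at day 0 and 2.26 FPKM at day 2, against 34.1 FPKM at day 0. LINC00458, also known from stem cells, went the other way and rose to 20.02 FPKM at day 2, against 2.28 FPKM at day 0.

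Antisense genes overlap coding genes, and whether counting used strand is not given in the sources used here, so their reads cannot be told apart from those of the partner. EVX1-AS, GATA6-AS1 and WNT5A-AS1 rose to 27.6, 14.5 and 16.02 FPKM at day 2, against 0, 0 and 0.138 FPKM at day 0, each overlapping a coding gene that rose. FOXD3-AS1 fell to 5.09 FPKM at day 2, against 34.8 FPKM at day 0 and overlaps FOXD3, which fell. Short classes rest on few reads. Of 214 measured miRNA genes 83.6% had fewer than 10 reads in both libraries, and of 244 snRNA genes 91.8%. The poly-T selection named in the labels does not favour them, and their calls are not described.

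Head-to-head pairs, where a noncoding and a coding gene start within 5 kb of one another on opposite strands, avoid the overlap. Counting only noncoding genes that overlap no coding gene, 20 such pairs had a higher noncoding member, and the coding partner was higher in 16 (80%) and lower in 0. In 11 pairs the noncoding member was lower, and its partner was lower in 4 (36.4%) and higher in 0. Among 149 pairs whose noncoding member was not called, 9 partners were higher and 6 lower. For noncoding genes whose nearest coding gene lay farther than 5 kb, the partner was higher beside 34 of 110 higher ones (30.9%) and lower beside 2, and it was lower beside 29 of 116 lower ones (25%) and higher beside 3. The share on the falling side was thus 4 of 11 in head-to-head pairs and 29 of 116 at a distance, and the difference was not tested. Under the GC subtraction the partner was higher in 12 of 15 pairs with a higher noncoding gene and lower in 0, and lower in 5 of 13 pairs with a lower one and higher in 0. Of the 20 pairs 2 rested on a noncoding gene with fewer than 10 reads in both libraries.

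**Figure D5:**
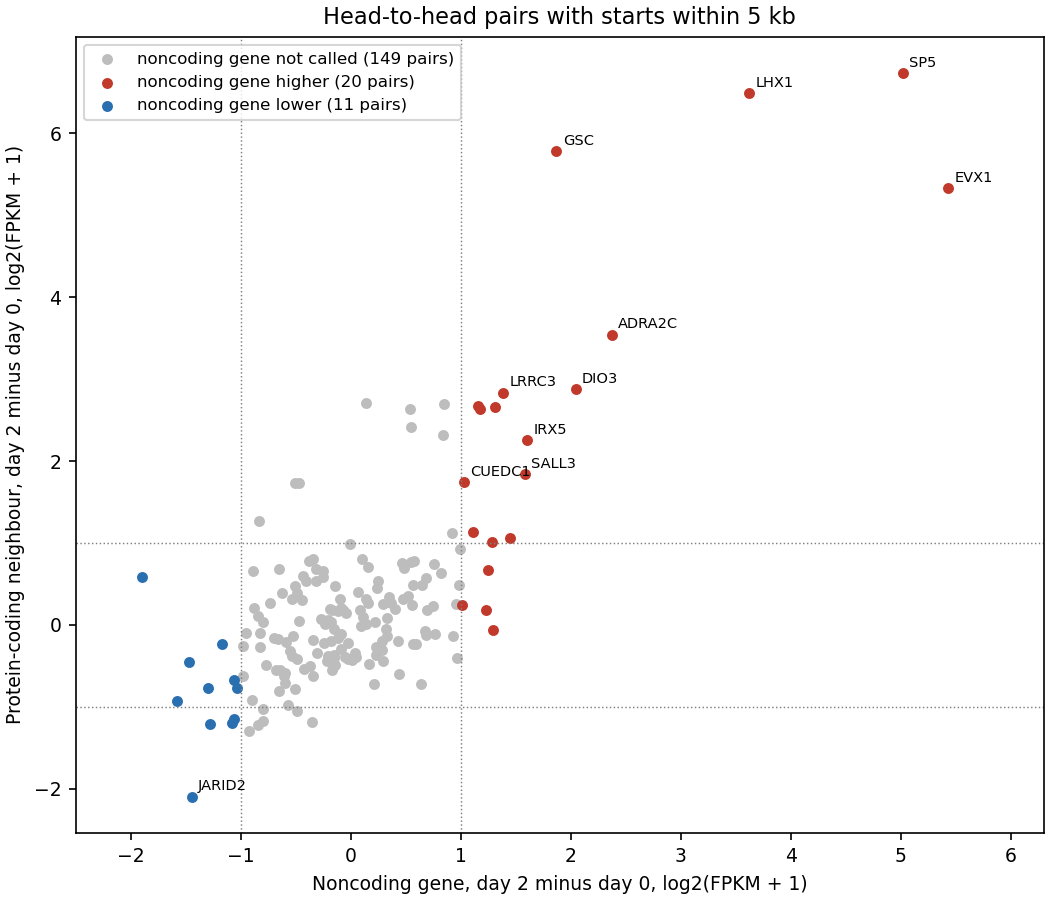
Difference between day 2 and day 0 in log2(FPKM + 1) of the coding gene (vertical axis) and of the noncoding gene (horizontal axis) in head-to-head pairs whose starts lie within 5 kb, with 1 library for each day. Red points are the 20 pairs with a higher noncoding gene, blue the 11 with a lower and grey the 149 with an uncalled one, and dotted lines mark a difference of 1. No red point lies below the lower dotted line and no blue point above the upper one.

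LINC01124 starts 784 bases from SP5, a zinc finger factor induced by WNT, and had 31.4 FPKM at day 2 and 0 FPKM at day 0, while SP5 had 340.4 FPKM at day 2 and 2.21 FPKM at day 0. AC004080.1 starts 1472 bases from the homeobox gene EVX1 and had 42.1 FPKM at day 2 and 0 FPKM at day 0, while EVX1 had 39.3 FPKM at day 2 and 0 FPKM at day 0. LHX1-DT starts 124 bases from LHX1 and had 13.6 FPKM at day 2 and 0.189 FPKM at day 0, while LHX1 had 116 FPKM at day 2 and 0.296 FPKM at day 0. Both noncoding and coding gene were thus higher in each of these 3 pairs. DIO3OS starts 920 bases from DIO3, the gene of the deiodinase that inactivates thyroid hormone, and had 3.38 FPKM at day 2 and 0.0614 FPKM at day 0, while DIO3 had 19.6 FPKM at day 2 and 1.801 FPKM at day 0. SALL3 and LINC01896, with starts 1201 bases apart, were already expressed at day 0, SALL3 with 28.6 FPKM at day 2 and 7.28 FPKM at day 0 and LINC01896 with 22.98 FPKM at day 2 and 6.99 FPKM at day 0. On the falling side AL136162.1, 1296 bases from JARID2, fell to 0.634 FPKM at day 2, against 3.45 FPKM at day 0, and SOX21-AS1, 317 bases from SOX21, had 0.113 FPKM at day 2 and 1.32 FPKM at day 0, a call that ended under the GC subtraction.

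The promoters of 3 of these coding partners are shown from the RefSeq table (GRCh38.p14), 250 bases before to 50 after the start, because their starts lie so close to that of a noncoding gene or to a WNT motif. In SP5 the capitals mark the motif CTTTGAT, a core of TCF and LEF binding, searched on both strands. In GSC and MNX1 they mark the bases from the annotated start of the noncoding gene, AL121612.2 or MNX1-AS1, to that of the coding gene. These starts are those of GENCODE release 29, and the RefSeq start of the coding gene, on which the window is set, lies elsewhere, so the capitals do not end at it.
SP5: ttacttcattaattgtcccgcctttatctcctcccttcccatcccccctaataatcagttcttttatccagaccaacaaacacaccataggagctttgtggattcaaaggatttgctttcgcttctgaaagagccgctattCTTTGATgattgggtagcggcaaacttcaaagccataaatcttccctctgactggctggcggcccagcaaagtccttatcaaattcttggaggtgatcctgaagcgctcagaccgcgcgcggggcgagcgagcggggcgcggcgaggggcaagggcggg
GSC: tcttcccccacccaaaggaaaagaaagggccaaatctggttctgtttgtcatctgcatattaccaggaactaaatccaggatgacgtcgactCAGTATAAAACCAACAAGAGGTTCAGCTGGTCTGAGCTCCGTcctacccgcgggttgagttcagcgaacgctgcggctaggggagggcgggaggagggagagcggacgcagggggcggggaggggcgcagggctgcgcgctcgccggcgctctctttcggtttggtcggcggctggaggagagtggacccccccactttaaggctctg
MNX1: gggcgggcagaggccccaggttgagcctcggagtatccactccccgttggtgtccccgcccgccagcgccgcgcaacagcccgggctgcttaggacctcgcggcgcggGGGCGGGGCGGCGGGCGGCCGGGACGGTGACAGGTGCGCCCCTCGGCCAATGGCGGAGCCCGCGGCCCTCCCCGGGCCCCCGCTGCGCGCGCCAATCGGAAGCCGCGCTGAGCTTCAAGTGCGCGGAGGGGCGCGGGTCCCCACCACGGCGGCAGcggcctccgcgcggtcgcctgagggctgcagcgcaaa
These are chr2:170715087-170715386 on the plus strand, and chr14:94770064-94770363 and chr7:157010614-157010913 on the minus strand. CTTTGAT was found in 1.38% of promoters of measured protein-coding genes, in 1.95% of those called higher, in 1.21% of those called lower and in 1.36% of those not called. Of the 8 primitive streak markers with a promoter 2 held it, SP5 and MIXL1, and of the 5 measured WNT ligands 0 did. The promoters of LEF1, TCF7, DKK1 and RSPO3, which were also higher, held no match. AL121612.2 and GSC start 41 bases apart, and AL121612.2 had 2.65 FPKM at day 2 and 0 FPKM at day 0 while GSC, a homeobox factor of the organizer, had 60.04 FPKM at day 2 and 0.109 FPKM at day 0. MNX1-AS1 and MNX1 start 154 bases apart, MNX1-AS1 with 1.37 FPKM at day 2 and 0.0661 FPKM at day 0 and MNX1, a homeobox factor of motor neurons and pancreas, with 5.79 FPKM at day 2 and 0.0655 FPKM at day 0. At day 2 the noncoding member had the lower FPKM in these 3 pairs.

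The course after day 2 differed from gene to gene. Of the 1406 genes that were higher at day 2, 577 (41.04%) had their highest level of the 6 libraries at day 2 and 263 (18.7%) at day 30. On each of the 5 days from day 2 to day 30, 335 (23.8%) were past the call against day 0. Of the 1242 that were lower at day 2, 932 (75.04%) had their highest level at day 0, 429 had their lowest level at day 2, and 500 (40.3%) were past the call on all 5 days. These counts share the day 0 library with the calls themselves.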

How the data were processed

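The authors deposited 1 table of FPKM values for 58735 genes in 6 libraries. Gene identifiers, starts, ends and strands of all 58735 genes equal GENCODE release 29 on GRCh38. Per the submitters' processing notes, the tools were featureCounts 1.5.0-p3, HISAT2 and CASAVA; the sources used here give no settings or mapping build. The gene length in the deposited table, multiplied by FPKM, came in whole steps within 0.001 read for 100% of values, so reads were recovered (14824424 to 15526924 in the libraries of day 0 and day 2). Genes with an FPKM of at least 1 in either library were compared on log2(FPKM + 1), which understates the change of low genes, and called at a difference of at least 1. Intervals are exact conditional binomial at 95%; a fold against 0 reads is a bound at a floor of 3 reads per library. Reads were not counted by molecular identifiers, so intervals cover counting error only.

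The members and the 85 gene lists were chosen with earlier results of these data known. After values were seen, all lists but the noncoding ones were limited to protein-coding genes, and the chemokine list lost receptor genes. Named genes are the up to 4 largest rises and falls and the most abundant member of each list, the 10 largest coding and intergenic and 5 largest antisense rises and falls, family members called in opposite directions, and genes with a promoter shown. MT1X, MT1F, FABP5P7, AASS, CDH1, TBX6, GATA4 and the noncoding partners of head-to-head pairs were chosen after their values were seen. A few genes that the rule selects are not reported here. GC share is that of each gene's longest transcript, available for 16013 measured genes. Alternatives were other pseudocounts, minimums, scalings and call rules and subtraction of GC-bin medians. Calculations used Python 3.11.15, pandas 2.3.3, numpy 2.4.6 and scipy 1.17.1, and the interval code was tested on simulated reads.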

Additional observations from a re-analysis of the deposited data

How the results depend on the processing

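No paired analysis was possible because each day has 1 library. The counts of higher and lower genes stayed within 1.5 times of 1406 and 1242 with no minimum (1406 and 1242), total-read scaling (1542 and 1105), TMM scaling of recovered reads (1479 and 1141), GC-bin subtraction (1176 and 1124) and an interval that must exclude 1 (1143 and 1014). They moved to 2130 and 2092 with a pseudocount of 0.1, to 698 and 621 with a minimum FPKM of 5, to 3625 and 2781 with TPM scaling, where the pseudocount weighs less and 22662 genes are tested, to 302 and 133 with a difference of 2, and to 784 and 639 in protein-coding genes only. The GC gap of 0.82 was 0.98 with a pseudocount of 0.1, 0.97 with a minimum FPKM of 5, 0.90 with TPM scaling and 0.80 in protein-coding genes. Of 579 called genes that the naming rule selects, 452 kept their call under every scaling, pseudocount and GC setting, 115 lost it under the GC subtraction, and none of them reversed. With 1 library per day, variation between cultures is unknown, and genes with few reads at day 0 have wide intervals.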

Other observations

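The deposited table assigns transcription factor classes of its own, counted here beside the lists above. Of 54 measured genes in its homeobox class 23 were higher and 7 lower, of 52 in its bHLH class 14 and 5, and of 22 in its forkhead class 7 and 4. Of 485 C2H2 zinc finger genes 25 were higher and 13 lower, and of 38 genes in the ZBTB class 0 and 0. The proliferation marker MKI67 had 27.1 FPKM at day 2 and 28.7 FPKM at day 0. By chromosome, 113 of 1208 measured genes on chromosome 19 were higher and 37 lower, while on chromosome 4 it was 44 and 75 of 577. Chromosome 19 had a median difference of 0.23 and chromosome 4 one of -0.24, beside -0.03 for all measured genes. These chromosome values were taken without the GC subtraction, and the part of the GC trend in them was not tested. Of 13 mitochondrially encoded messages 0 were higher and 1 lower, MT-ATP8 with 127 FPKM at day 2 and 481 FPKM at day 0.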
